A study of Mus musculus with 12 samples.

Results

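The genes described here are the parts of the GABA system of the mouse cortex: receptor subunits, the enzymes and transporters that make, pack and clear GABA, the chloride transporters that set its effect, proteins of the inhibitory synapse, and transcription factors of GABA neurons. The 28 genes were chosen by name from 24062 genes in a table of read counts, and 26 of them had enough counts to be tested. RNA-seq was performed on cortex of mice aged 9 months in 4 genotype groups of 3 mice each. WT mice carried neither change. Tia1+/- mice had 1 frame-shifted copy of Tia1, which encodes an RNA-binding protein of stress granules. PS19 mice carried human 1N4R tau with the P301S mutation under the Prnp promoter, a model of tau pathology that depends on transgene overexpression. P301S Tia1+/- mice carried both. The PS19 and P301S Tia1+/- mice were described as littermates descended from crosses of the PS19 line (purchased as B6;C3) with Tia1 mutants on C57BL/6J. Whether the WT and Tia1+/- mice were their littermates is not stated. Mice at end stage had been left out by the investigators. The comparisons address how tau changes the cortex and whether losing a copy of Tia1 changes that response.

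Several facts about the libraries bear on every value below. Total counts ranged from 11978962 to 19146484 per library. Replicates of a group were separate samples, and no pair of libraries agreed within counting noise. For the Tia1+/- and P301S Tia1+/- samples the genotype entry of the labels names the other group, and the titles, which are also the column names of the count table, were followed. Tia1 itself checked the labels poorly: it was at 93.8, 76.8 and 75.4 CPM (counts scaled to a common library size, normalised by TMM) in WT, 61.4, 62.8 and 79.8 CPM in Tia1+/-, 77.9, 70.8 and 71.9 CPM in PS19, and 72.6, 73.5 and 77.8 CPM in P301S Tia1+/-, so that the groups overlapped in both backgrounds. Xist was at 217 to 367 CPM in the 6 libraries labelled with a Tia1 mutation and below 1 CPM in the other 6, and Ddx3y of the Y chromosome was the reverse, although the methods describe male mice unless otherwise noted. Sex and Tia1 genotype therefore cannot be told apart in any comparison between Tia1 genotypes.

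GABA is the main fast inhibitory transmitter of the cortex. It is made from glutamate by decarboxylases, packed into vesicles, released by local interneurons, and sensed by chloride channels built of several subunits (GABA-A receptors) and by slower G-protein-coupled receptors (GABA-B receptors). Gephyrin and neuroligin hold the channels at the synapse, and transporters on astrocytes and neurons clear the transmitter. Dlx transcription factors mark the GABA neurons of the forebrain and stay on in the interneurons that the adult olfactory bulb keeps adding, while Lhx6 marks the cortical interneurons born in the medial ganglionic eminence.

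The members were spread over the genome, with several receptor genes side by side. In GRCm38 coordinates, Gabrg1 (chr5:70751047-70842617), Gabra2 (chr5:70957597-71095849), Gabra4 (chr5:71569749-71658308) and Gabrb1 (chr5:71658113-72149037) formed a row in which Gabra4 and Gabrb1 lay head to head with 46 bases of exon in common on opposite strands. Gabra5 and Gabrg3 were neighbours on chromosome 7, Gabra6 and Gabrb2 on chromosome 11, and Gabre, Gabra3 and Gabrq on chromosome X. Dlx1 and Dlx2 lay as a pair on chromosome 2 and Dlx5 and Dlx6 as a pair on chromosome 6. Dlx1 shared 335 exon bases with the antisense gene Dlx1as, and Gabra5 shared 148 with the antisense gene Gm9962. The sources used here do not state whether counting used strand, so reads from those overlaps may be assigned to either gene.

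Promoters of 23 of the 28 members were found in the RefSeq promoter set (GRCm38.p6), each covering 250 bases before and 50 after an annotated start. Dlx2, Gad1, Gabrg1 and Gabrb1 are shown because the results turn on them or on their gene clusters. Capitals mark a motif found on either strand among 5 searched. CACGTG was searched as the E-box, TAATTA as a homeodomain core, TATAAA as the TATA box, and TGACGTCA and GCGTGGGCG as the CREB and EGR1 motifs. They occur in 7.15%, 5.29%, 13.6%, 1.79% and 0.612% of the 32851 promoters of that set, in that order. Dlx2 (chr2:71546705-71547004, minus strand) held CACGTG starting 142 and 42 bases before its start. Gad1 (chr2:70561879-70562178, plus strand) held TATAAA on the opposite strand, 141 bases before its start. Gabrg1 (chr5:70842568-70842867, minus strand) held 2 overlapping TAATTA words 182 and 178 bases before its start. None of the 5 words was in the upstream Gabrb1 promoter (chr5:71657671-71657970, plus strand). The Gabrg1 sequence held 3 CpG pairs at 38.3% GC, against 29 in Dlx2, 21 in Gad1 and 25 in Gabrb1. A match is a description of the letters and not evidence of binding. 
Dlx2: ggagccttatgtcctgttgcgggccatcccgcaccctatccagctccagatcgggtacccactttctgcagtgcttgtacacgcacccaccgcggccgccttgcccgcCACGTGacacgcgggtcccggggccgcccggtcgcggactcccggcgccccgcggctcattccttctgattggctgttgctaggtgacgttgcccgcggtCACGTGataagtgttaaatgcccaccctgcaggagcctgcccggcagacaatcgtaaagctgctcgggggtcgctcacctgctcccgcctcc
Gad1: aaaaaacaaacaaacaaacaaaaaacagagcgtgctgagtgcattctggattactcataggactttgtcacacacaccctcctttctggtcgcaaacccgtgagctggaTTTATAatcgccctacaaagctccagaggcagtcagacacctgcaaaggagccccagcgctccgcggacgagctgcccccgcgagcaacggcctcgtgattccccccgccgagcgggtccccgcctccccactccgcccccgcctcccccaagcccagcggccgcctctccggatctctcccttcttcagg
Gabrg1: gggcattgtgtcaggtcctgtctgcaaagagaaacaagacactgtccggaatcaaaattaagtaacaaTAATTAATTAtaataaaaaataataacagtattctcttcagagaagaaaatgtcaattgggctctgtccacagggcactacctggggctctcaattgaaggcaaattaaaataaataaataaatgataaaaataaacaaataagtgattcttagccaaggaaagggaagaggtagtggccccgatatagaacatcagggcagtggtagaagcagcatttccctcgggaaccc
Gabrb1: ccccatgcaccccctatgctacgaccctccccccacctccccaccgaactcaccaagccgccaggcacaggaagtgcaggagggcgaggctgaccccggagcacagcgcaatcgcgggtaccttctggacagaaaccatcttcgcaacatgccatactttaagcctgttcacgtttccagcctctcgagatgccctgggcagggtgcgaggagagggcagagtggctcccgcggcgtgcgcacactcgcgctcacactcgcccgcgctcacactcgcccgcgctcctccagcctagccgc

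Levels between genes were compared per kilobase of exon, as the mean of the 12 libraries. Gabrb2, a beta subunit, was highest at 87.0 CPM per kb, followed by Gabbr1, a GABA-B receptor subunit, at 86.2, and Gad1, the larger glutamate decarboxylase, at 80.2. Slc12a5, the neuronal chloride exporter, had 59.1 CPM per kb, Gabra3 43.6, Abat, which breaks GABA down, 42.6, and Gad2 41.1. At the other end Gabrg3 had 0.979 CPM per kb and Gabrq 0.467. Gabra6, a subunit of cerebellar granule cells, and Gabre had at most 4 counts in any library and were not tested, so no change in them was detectable at this depth.

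**Figure D1:**
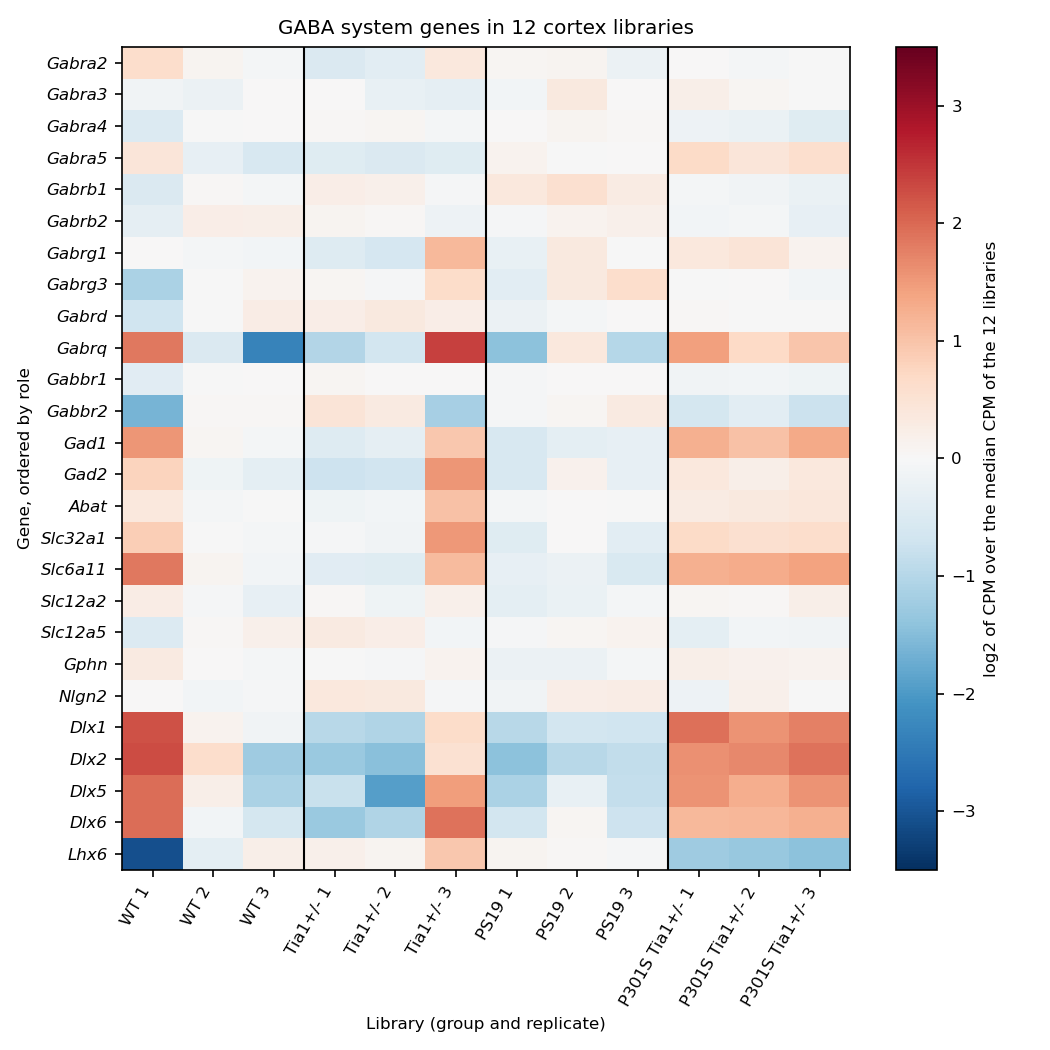
Heat map of the 26 tested genes (rows, ordered by role) in the 12 libraries (columns, by group and replicate). Colour is log2 of CPM over the median CPM of the 12 libraries, and WT replicate 1, Tia1+/- replicate 3 and the 3 P301S Tia1+/- libraries share high levels of Gad1, Slc6a11 and the Dlx genes.

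The libraries differed in the levels of markers of other brain regions, and many of the largest differences among the members ran with these levels. Lhx6 ran against the bulb markers, being lowest in WT replicate 1 and the 3 P301S Tia1+/- libraries, which had the highest bulb levels. Its highest library was Tia1+/- replicate 3. The summed level of 7 olfactory bulb neuron markers was 849, 131 and 26.9 CPM in WT, 7.25, 6.57 and 139 CPM in Tia1+/-, 6.29, 15.8 and 7.95 CPM in PS19, and 563, 514 and 600 CPM in P301S Tia1+/-. The 5 markers of olfactory sensory axons were highest in the same WT library (331 CPM) and in P301S Tia1+/- (177 to 299 CPM), against 20.9 to 60.0 CPM in the other 8. The 12 markers of striatal medium spiny neurons summed to 2974 CPM in Tia1+/- replicate 3 and to between 285 and 561 CPM in every other library. No gene of these lists was at 0 in all libraries. The 8 cortical excitatory markers were lowest in WT replicate 1 (1045 CPM) and Tia1+/- replicate 3 (1116 CPM) and ranged from 1379 to 2484 CPM elsewhere. The part of these tissues in the results below was not tested beyond the fits with covariates. In bulk tissue, fewer cells of a type and less RNA per cell cannot be told apart.

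Of the 26 tested members, WT replicate 1 was the highest library for 9 and the lowest for 9, and Tia1+/- replicate 3 was the highest for 7. For 11 members, among them Gad1, Gad2, Slc32a1, Slc6a11, Abat and Dlx1, the 5 highest libraries were exactly the 5 with the most olfactory bulb signal. For another 4 members, Gabra4, Gabrb2, Gabbr2 and Slc12a5, those same 5 libraries were the lowest. The lowest of the 5 for bulb signal, Tia1+/- replicate 3 (139 CPM), lay close to the next library, WT replicate 2 (131 CPM). Tia1+/- replicate 3 also had the highest striatal markers. These counts were taken over the members only, so no share of all genes stands beside them. A few libraries with very high marker levels would weigh heavily in a correlation, so none across the 12 libraries is given.

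**Figure D2:**
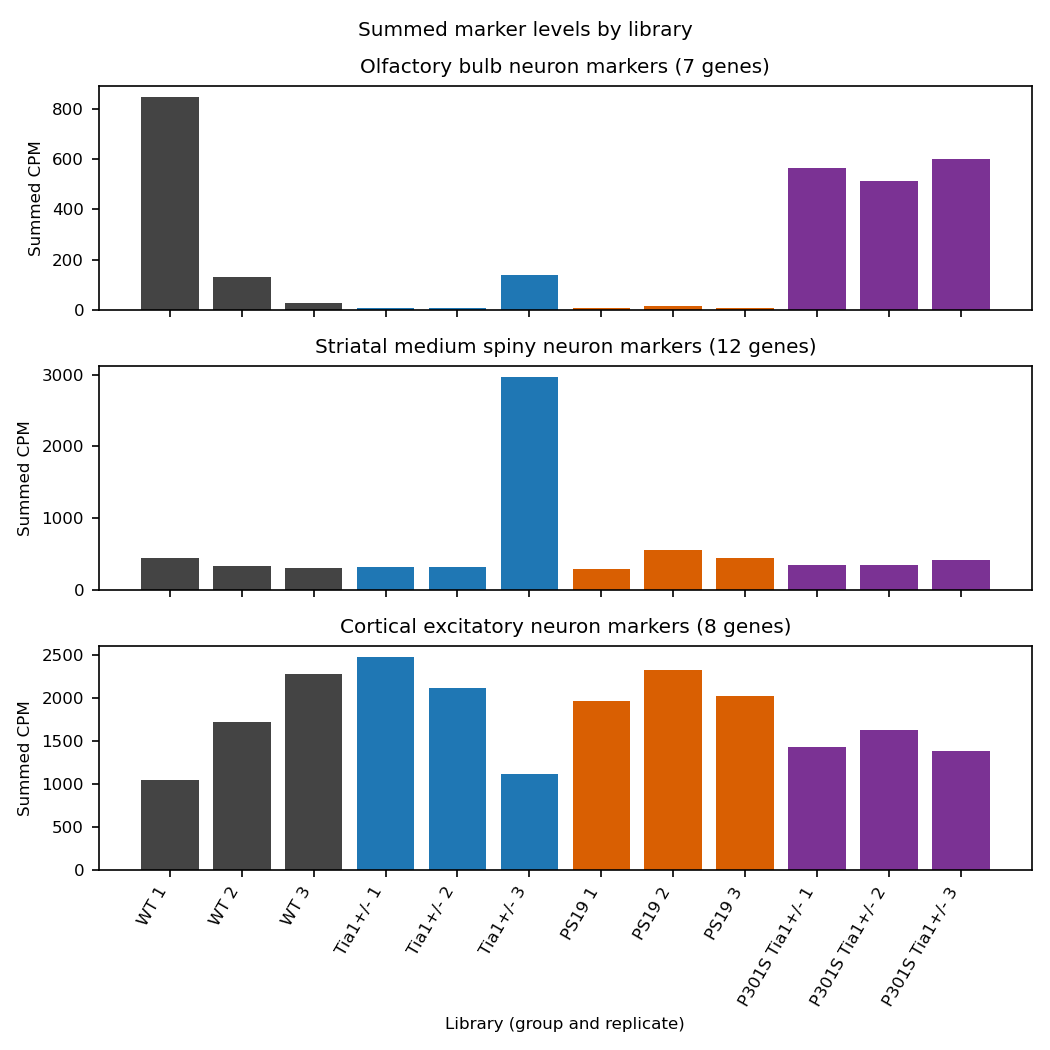
Bars give the summed CPM of each marker list in each of the 12 libraries, coloured by group. Olfactory bulb markers stand out in WT replicate 1 and all P301S Tia1+/- libraries, striatal markers in Tia1+/- replicate 3, and excitatory markers are lowest in WT replicate 1 and Tia1+/- replicate 3.

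Among GABA-A receptor subunits, Gabra5, an alpha subunit of extrasynaptic receptors, had the smallest p for the tau effect averaged over Tia1 genotype. It was at 107, 65.3 and 53.3 CPM in WT, 58.8, 56.2 and 59.5 CPM in Tia1+/-, 85.7, 79.2 and 79.4 CPM in PS19, and 127, 106 and 119 CPM in P301S Tia1+/-. All 6 libraries with tau were above all 3 Tia1+/- libraries and above WT replicates 2 and 3, while WT replicate 1 was as high as the tau libraries. Gabrb1, a beta subunit, was at 29.7, 43.2 and 40.5 CPM in WT, 49.1, 48.1 and 41.0 CPM in Tia1+/-, 54.0, 61.9 and 51.1 CPM in PS19, and 39.9, 38.9 and 36.0 CPM in P301S Tia1+/-. Its PS19 libraries were the 3 highest of the 12, with no overlap with any other group.

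Other subunits varied less or followed single libraries. Gabrb2 varied 1.46-fold from the lowest to the highest library, Gabra4 1.5-fold and Gabra3 1.56-fold. Gabrg1 was at 94.3 CPM in Tia1+/- replicate 3 and at 28.5 to 59.1 CPM elsewhere. Gabrq, a rare theta subunit, varied most of all tested members, 26.9-fold, from 0.304 CPM in WT replicate 3 to 8.18 CPM in Tia1+/- replicate 3. These were 4 and 127 counts, of 448 over all libraries, so the fold rests on a value near the floor. Gabra2 was highest in WT replicate 1 (65.3 CPM) and Tia1+/- replicate 3 (54.3 CPM). Gabrd, the delta subunit of tonic receptors, was lowest in WT replicate 1 at 37.5 CPM, against 52.6 to 76.9 CPM elsewhere. Gabrg3 ranged from 5.20 CPM in WT replicate 1 to 17.3 CPM in Tia1+/- replicate 3.

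The GABA-B receptor subunits differed in their spread. Gabbr1 varied 1.39-fold, the least of the tested members, and the WT mean was 637 CPM ± 95.6, the Tia1+/- mean 712 ± 16.7, the PS19 mean 690 ± 15.8 and the P301S Tia1+/- mean 636 ± 15.6 (SD, n = 3). Gabbr2, its partner in the receptor, was at 57.5, 186 and 184 CPM in WT, 246, 224 and 79.4 CPM in Tia1+/-, 174, 189 and 222 CPM in PS19, and 116, 137 and 107 CPM in P301S Tia1+/-. Its lowest values were therefore in the libraries with the most bulb or striatal signal.

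The genes for making, packing and clearing GABA were ranked much like the tissue signal. Gad1 was at 1222, 440 and 397 CPM in WT, 307, 338 and 803 CPM in Tia1+/-, 282, 329 and 342 CPM in PS19, and 990, 857 and 1044 CPM in P301S Tia1+/-. The 7 libraries with the most Gad1 stood in the same order as the 7 with the most bulb signal. Gad2, the decarboxylase of nerve endings, was at 359, 187 and 164 CPM in WT, 126, 130 and 610 CPM in Tia1+/-, 142, 230 and 171 CPM in PS19, and 269, 238 and 270 CPM in P301S Tia1+/-. Its highest library was thus the Tia1+/- replicate with high striatal markers.

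Slc6a11, an astrocyte GABA transporter (GAT-3), was at 376, 112 and 97.8 CPM in WT, 80.3, 77.6 and 226 CPM in Tia1+/-, 85.5, 91.0 and 72.5 CPM in PS19, and 250, 260 and 280 CPM in P301S Tia1+/-. Of 4 astrocyte markers, Aqp4 had the same 5 highest libraries, at 345 CPM in WT replicate 1, 206 to 254 CPM in P301S Tia1+/- and 189 CPM in Tia1+/- replicate 3, against 86.3 to 165 CPM in the other 7. Aldh1l1 stayed between 66.6 and 87.8 CPM, and Gfap was highest in PS19 replicate 1 (569 CPM). The sum of the 4 was highest in PS19 replicate 1 (1015 CPM) and WT replicate 1 (891 CPM) and lay between 376 and 718 CPM elsewhere, and the part of astrocytes in the Slc6a11 result was not tested. Slc32a1, the vesicular GABA transporter, was at 117 CPM in Tia1+/- replicate 3, 73.7 CPM in WT replicate 1 and 60.1 to 65.1 CPM in P301S Tia1+/-, against 30.2 to 41.5 CPM in the other 7. Abat varied less, from 259 CPM to 577 CPM.

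The chloride transporters and synaptic proteins varied by at most 1.74-fold. For Slc12a5 the WT mean was 422 CPM ± 95.1, the Tia1+/- mean 495 ± 71.9, the PS19 mean 456 ± 24.5 and the P301S Tia1+/- mean 387 ± 37.2 (SD, n = 3). Slc12a2, which imports chloride, varied 1.49-fold. Gphn, which encodes gephyrin, varied 1.43-fold, and Nlgn2, the neuroligin of inhibitory synapses, varied 1.46-fold.

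The transcription factors varied between 9.63-fold and 16.4-fold from the lowest to the highest library. Dlx1 was at 62.8, 14.5 and 12.2 CPM in WT, 6.83, 6.37 and 20.8 CPM in Tia1+/-, 6.81, 8.57 and 8.25 CPM in PS19, and 50.9, 39.8 and 45.3 CPM in P301S Tia1+/-. The P301S Tia1+/- libraries and WT replicate 1 stood well above the rest. Dlx2 varied 13.3-fold, Dlx5 14.5-fold and Dlx6 9.63-fold, with their highest level in WT replicate 1 in each case. Lhx6 ran the other way: it was at 1.68, 11.3 and 16.3 CPM in WT, 16.1, 15.3 and 27.5 CPM in Tia1+/-, 15.2, 14.6 and 13.9 CPM in PS19, and 6.04, 5.70 and 5.23 CPM in P301S Tia1+/-. The 12 markers of cortical interneuron subtypes did not move together in WT replicate 1. Their summed level was highest there (1111 CPM, against 503 to 976 CPM elsewhere), with Calb2, Reln and Crh at their highest and Sst, Pvalb, Lamp5 and Cort at their lowest. Calb2 was at 385 CPM in that library and Sst at 12.6 CPM, against 8.55 to 266 and 52.5 to 126 CPM in the other 11.

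**Figure D3:**
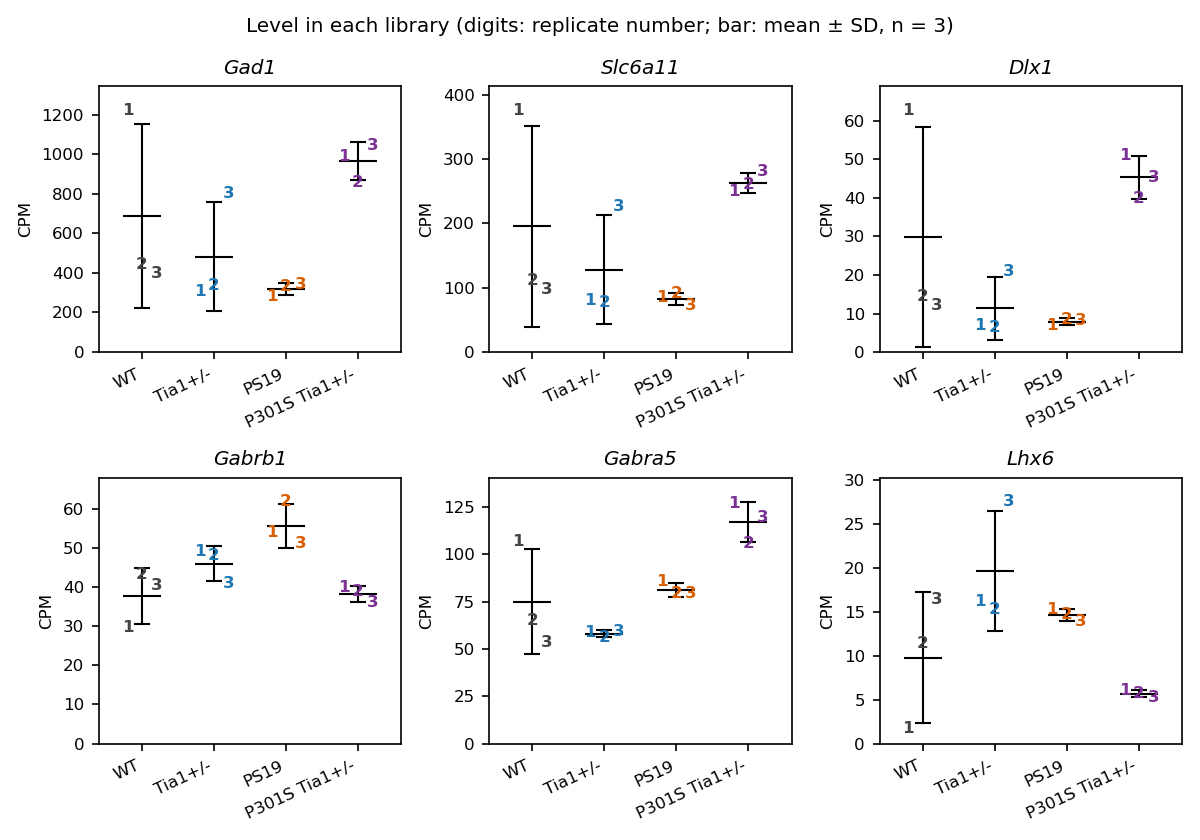
CPM in each library for 6 genes, by group; digits are replicate numbers and the bar with whiskers is the mean ± SD (n = 3). WT replicate 1 and Tia1+/- replicate 3 stand apart from their groups for Gad1, Slc6a11 and Dlx1, and PS19 is highest for Gabrb1.

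PS19 was compared with WT to ask what tau does on its own. No member passed an adjusted p of 0.05 in edgeR's quasi-likelihood test over 15440 genes (smallest adjusted p = 0.159), where 0% of all genes did. DESeq2 called 2 members, Gabrb1 and Dlx1, where it called 2.88% of all genes. At an unadjusted p under 0.05, 6 of 26 members were found, 1 higher and 5 lower, beside 16.3% of all genes (6.56% higher, 9.73% lower). The median log2 difference of the members was -0.060, beside -0.0066 for all genes tested. Groups did not overlap for 4 members, Gabrb1 (higher) and Gad1, Slc6a11 and Dlx1 (lower), beside 20.8% of all genes (9.75% higher, 11% lower).

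Apart from Gabrb1, the values of the members at that level fell by more than 1.5 times in size without WT replicate 1. Gabrb1 had a mean of 37.8 CPM ± 7.16 in WT and 55.7 ± 5.57 in PS19 (SD, n = 3), a log2 difference of 0.56 (SE 0.14, edgeR adjusted p = 0.159), and of 0.42 without WT replicate 1. The Dlx1 difference was -1.92 (SE 0.62, adjusted p = 0.197), and -0.75 without WT replicate 1. Dlx2 differed by -2.26 (SE 0.76, adjusted p = 0.211) and by -1.03 without it, and Gad1 by -1.11 (SE 0.44, adjusted p = 0.259) and by -0.39 without it. The same held for Slc6a11, at -1.23 (SE 0.52, adjusted p = 0.275) and -0.33, and for Gphn, at -0.24 (SE 0.10, adjusted p = 0.269) and -0.12. With the mean log2 level of the bulb markers as a covariate, the differences of Dlx1, Dlx2, Gad1 and Slc6a11 became 0.20, 0.52, 0.32 and 0.49.

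P301S Tia1+/- was compared with PS19 to ask whether a lost Tia1 copy changes the cortex of tau mice. No member passed the adjusted threshold in edgeR (smallest adjusted p = 0.103), where 0.24% of all genes did, and DESeq2 called Gad1, Dlx1, Dlx2 and Gabrb1 where it called 5.45% of all genes. At an unadjusted p under 0.05, 11 members were found, 8 higher and 3 lower, beside 19.3% of all genes (11.7% higher, 7.62% lower). The median log2 difference was 0.30 for the members and 0.0097 for all genes. Groups did not overlap for 20 of 26 members, 13 higher and 7 lower, beside 38.5% of all genes (20.2% higher, 18.2% lower). All 5 genes of GABA synthesis, breakdown, packing and uptake were higher in each P301S Tia1+/- library than in each PS19 library, and both GABA-B subunits were lower.

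The fit of these libraries alone gave another count. When only these 6 libraries were fitted, 17 members passed, 13 higher and 4 lower, beside 20.1% of all genes, and neither WT replicate 1 nor Tia1+/- replicate 3 was in that fit, which also had its own filter and scaling. In the fit of 12 libraries, Dlx1 differed by 2.53 (SE 0.62, adjusted p = 0.103), Dlx2 by 2.80 (SE 0.75, adjusted p = 0.114) and Dlx5 by 2.19 (SE 0.83, adjusted p = 0.199). Gad1 differed by 1.60 (SE 0.45, adjusted p = 0.121), from 318 CPM ± 31.6 to 964 ± 96.4 (SD, n = 3), and Slc6a11 by 1.67 (SE 0.52, adjusted p = 0.145). Smaller differences were found for Gabra5 (0.53, SE 0.20, adjusted p = 0.195), Gphn (0.31, SE 0.10, adjusted p = 0.147) and Slc12a2 (0.32, SE 0.14, adjusted p = 0.233). The lower members were Gabrb1 (-0.54, SE 0.14, adjusted p = 0.105), Gabra4 (-0.33, SE 0.12, adjusted p = 0.197) and Lhx6 (-1.37, SE 0.54, adjusted p = 0.212).

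The tissue markers moved with all of these. The bulb sum was at 6.29 to 15.8 CPM in PS19 and 514 to 600 CPM in P301S Tia1+/-, with all 7 markers higher and no overlap. Cortical excitatory markers were lower in P301S Tia1+/- for 6 of 8 genes with no overlap. With that bulb level as a covariate, Dlx1 differed by -0.058, Gad1 by -0.24 and Slc6a11 by -0.50 between these groups. Bulb tissue and genotype cannot be told apart in this comparison, since no PS19 library came near the bulb level of any P301S Tia1+/- library.

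Tia1+/- was compared with WT to ask what a lost Tia1 copy does without tau. In edgeR no member passed the adjusted threshold (smallest adjusted p = 0.241), where 0.712% of all genes did, and DESeq2 called no member where it called 6.33% of all genes. Of 26 members, 2 had an unadjusted p under 0.05, both lower, beside 19.1% of all genes (8.63% higher, 10.5% lower). The median log2 difference of the members was 0.16, against 0.0057 for all genes. Only Gabbr1 had groups that did not overlap, with Tia1+/- higher, beside 20% of all genes (9.6% higher, 10.4% lower). Dlx1 differed by -1.39 (SE 0.60, adjusted p = 0.241), by -0.21 without WT replicate 1 and by -2.17 without Tia1+/- replicate 3. Dlx2 differed by -1.60 (SE 0.73, adjusted p = 0.260), by -0.36 without WT replicate 1 and by -2.54 without Tia1+/- replicate 3. Gabrb1 differed by 0.28 (SE 0.14, adjusted p = 0.288) and Gabrd by 0.37 (SE 0.18, adjusted p = 0.296), and without WT replicate 1 these were 0.15 and 0.16. Without WT replicate 3 the Gabrd value was 0.60. Nlgn2 differed by 0.27 (SE 0.14, adjusted p = 0.314).

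P301S Tia1+/- was compared with Tia1+/- to ask what tau does where a Tia1 copy is lost. No member passed in edgeR (smallest adjusted p = 0.175), where 0% of all genes did, and DESeq2 called Gabra5, Dlx1 and Lhx6 where it called 2.62% of all genes. At an unadjusted p under 0.05, 6 members were found, 4 higher and 2 lower, beside 15.6% of all genes (8.92% higher, 6.66% lower). The members had a median log2 difference of -0.022, beside 0.0064 for all genes. Groups did not overlap for 11 members, 6 higher and 5 lower, beside 26% of all genes (14.9% higher, 11.1% lower).

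The Gabra5 difference was 1.01 (SE 0.20, edgeR adjusted p = 0.175), from 58.1 CPM ± 1.74 to 117 ± 10.6 (SD, n = 3). It ranged from 0.95 to 1.08 as each library was left out, and was 0.49 with the bulb covariate. With the bulb and striatal levels together as covariates it was negative. The bulb sum was 6.57 to 139 CPM in Tia1+/- and 514 to 600 CPM in P301S Tia1+/-. Bulb tissue and genotype therefore cannot be told apart in this comparison either. Lhx6 differed by -1.80 (SE 0.54, adjusted p = 0.205), Gabra4 by -0.29 (SE 0.12, adjusted p = 0.290) and Gad1 by 0.997 (SE 0.44, adjusted p = 0.309). For Gad1 the value was 1.57 without Tia1+/- replicate 3, the library with high striatal and raised bulb markers. Dlx1 differed by 2.0 (SE 0.61, adjusted p = 0.209) and Dlx2 by 2.15 (SE 0.72, adjusted p = 0.235), and without Tia1+/- replicate 3 these were 2.77 and 3.08. When only the 6 libraries were fitted, Gabra5 and Lhx6 passed, beside 2.22% of all genes.

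The tau effect was also averaged over Tia1 genotype. No member passed in edgeR (smallest adjusted p = 0.359, for Gabra5), where 0% of all genes did. An unadjusted p under 0.05 was found for 2 members, both higher, beside 8.39% of all genes (4.13% higher, 4.26% lower), and DESeq2 called Gabra5 where it called 0.518% of all genes. The median log2 difference was -0.058 for members and -0.0050 for all genes, and no member had groups without overlap, beside 0.291% of all genes (0.207% higher, 0.0842% lower). Gabra5 differed by 0.56 (SE 0.14), and without WT replicate 1 by 0.74 with an edgeR adjusted p of 0.00465, where 0.121% of all genes passed, while Gabra3 differed by 0.22 (SE 0.09, adjusted p = 0.542). Lhx6 differed by -0.61 (SE 0.38, adjusted p = 0.709), and by -0.32 without WT replicate 3. Gabrb1 differed by 0.14 (SE 0.10, adjusted p = 0.734), or 0.07 without WT replicate 1, and Slc32a1 by -0.31 (SE 0.28, adjusted p = 0.834). Leaving out Tia1+/- replicate 3 turned the Slc32a1 value to 0.064.

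The interaction asked whether the tau effect differed between the Tia1 genotypes. No member passed the adjusted threshold in edgeR (smallest adjusted p = 0.0684), where 0.00648% of all genes passed. DESeq2 called 6 members, Gabra5, Gabrb1, Gad1, Dlx1, Dlx2 and Lhx6, where it called 8.06% of all genes. At an unadjusted p under 0.05, 10 members were found, 7 higher and 3 lower, beside 22.9% of all genes (13.6% higher, 9.28% lower), and the median was 0.17 for members and 0.0049 for all genes. The largest terms were Dlx2 at 4.40 (SE 1.05, adjusted p = 0.0694) and Dlx1 at 3.92 (SE 0.87, adjusted p = 0.0684). Dlx5 followed at 2.78 (SE 1.15, adjusted p = 0.186), Slc6a11 at 2.27 (SE 0.73, adjusted p = 0.115) and Gad1 at 2.11 (SE 0.62, adjusted p = 0.0977).

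The other terms at that level were Lhx6 at -2.37 (SE 0.76, adjusted p = 0.115), Gabra5 at 0.90 (SE 0.28, adjusted p = 0.110), Gabrb1 at -0.83 (SE 0.19, adjusted p = 0.0694), Gabra4 at -0.48 (SE 0.17, adjusted p = 0.144) and Gphn at 0.37 (SE 0.14, adjusted p = 0.154). Single libraries moved these counts. Without WT replicate 1, 3 members passed (Lhx6, Dlx1 and Gabrb1), beside 1.55% of all genes. Without Tia1+/- replicate 3, 5 passed beside 2.6%, and without WT replicate 3, 6 passed beside 6.59%. The sizes moved too: without WT replicate 1 the terms of Gad1, Slc6a11, Dlx5 and Gabra5 were 1.38, 1.36, 1.59 and 0.54, and that of Gphn was 0.24. Without Tia1+/- replicate 3 the Dlx5 term was 4.28. With the bulb level as covariate, the terms of Dlx1, Gad1 and Slc6a11 were -0.11, -0.72 and -1.07.

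Further settings were read across all comparisons, and the members called in them differed. With both WT replicate 1 and Tia1+/- replicate 3 left out, a setting chosen after the data were seen, the tau effect averaged over Tia1 genotype passed for 14 members, 10 higher and 4 lower, beside 14% of all genes. Gad1, Gad2, Slc6a11, Gabra5 and all 4 Dlx genes were among the higher ones, and Lhx6, Gabbr2, Gabrd and Slc12a5 were the lower ones. In the same setting 20 members passed in P301S Tia1+/- against Tia1+/- (23.4% of all genes), 19 in P301S Tia1+/- against PS19 (22.9%), 16 in the interaction (13.5%), 1 in Tia1+/- against WT (1.72%) and 0 in PS19 against WT (0.476%). The P301S Tia1+/- libraries kept their high bulb markers in that setting, and the other groups had none as high.

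With the bulb level as a covariate, the members called were other genes. Gad2, Dlx6 and Gabrq passed in PS19 against WT, all higher (2.79% of all genes), and Gad2, Gabra2, Dlx6 and Gabrq in P301S Tia1+/- against PS19, all lower (2.75%). Abat, Gad2, Slc32a1, Dlx5, Dlx6 and Gabrq passed in Tia1+/- against WT, all higher (6.28%). In P301S Tia1+/- against Tia1+/- 5 members passed, all lower (3.98%), in the interaction 6, all lower (4.44%), and in the average 0 (0.0453%). Striatal markers were highest in Tia1+/- replicate 3, the library where Gad2, Slc32a1, Abat and Gabrq peaked, while Gabra2, Dlx5 and Dlx6 peaked in WT replicate 1. That match rests on 1 library: the striatal sum was 2974 CPM there and 285 to 561 CPM in every other library.

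With the striatal level as the covariate, 8 members passed in P301S Tia1+/- against PS19 (3.92% of all genes), 11 in the interaction (8.23%) and 0 in the other comparisons (0%, 0.22%, 0.253% and 0.00648%). With both levels as covariates, also chosen after the data were seen, Gabra5 was called in the average (0.48, edgeR adjusted p = 0.0156, beside 1.08% of all genes). In that fit the Gabra5 value was negative in P301S Tia1+/- against Tia1+/- and in the interaction, so the averaged tau effects had opposite signs. Gabra5 (higher) and Gabrd (lower) were called in PS19 against WT (0.512%). Gabrd alone, higher, was called in P301S Tia1+/- against PS19 (1.19%) and in the interaction (0.589%). No member was called in Tia1+/- against WT (0.304%) or in P301S Tia1+/- against Tia1+/- (0.389%). With only the 6 libraries compared, no member was called in Tia1+/- against WT (0.0408%) or in PS19 against WT (0%).

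**Figure D4:**
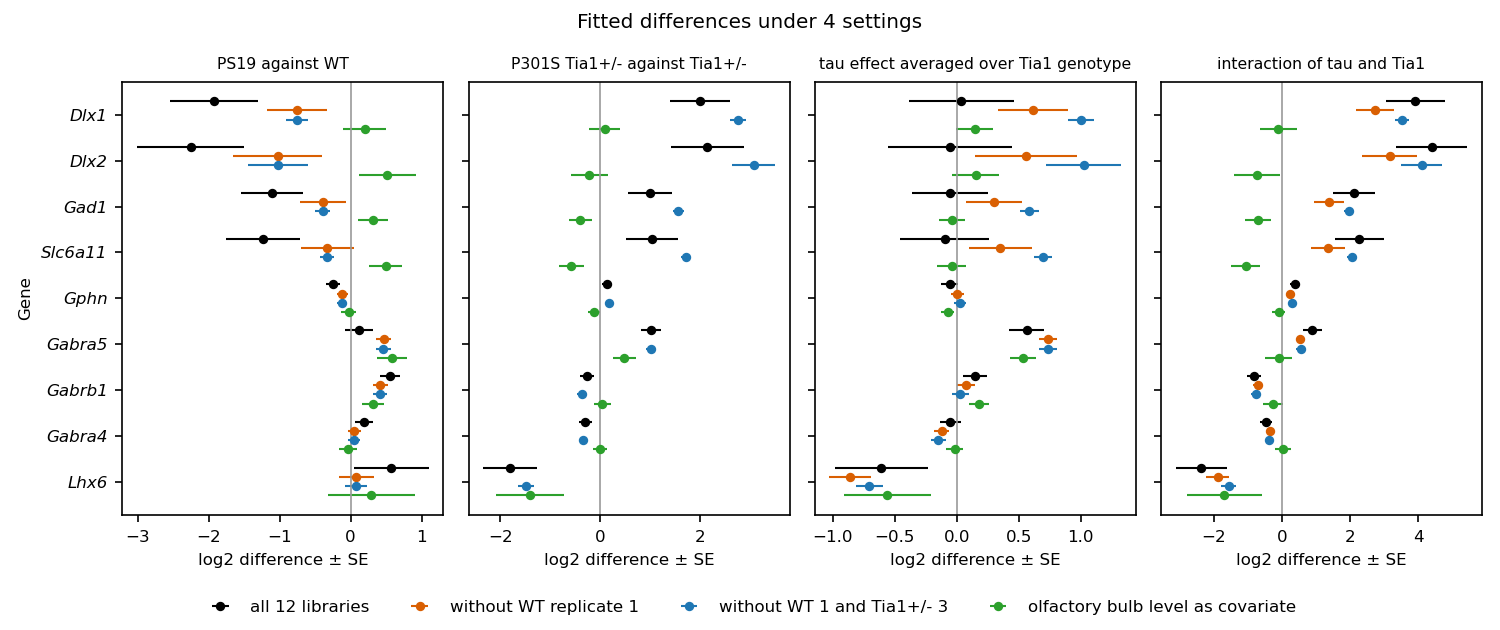
Fitted log2 difference ± SE of 9 genes in 4 comparisons under 4 settings, with the all-library fit in black. The Dlx1, Dlx2, Gad1 and Slc6a11 values in PS19 against WT shrink without WT replicate 1 and turn positive with the olfactory bulb covariate, while Gabra5 lies above 0 in the panels of PS19 against WT, P301S Tia1+/- against Tia1+/- and the average under each setting drawn there.

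The rest of the pathway was examined in the same fits. Of 43 listed genes (other receptor subunits, glutamine and GABA transporters, anchoring and trafficking proteins, glycine receptors and interneuron transcription factors), 40 were tested and none passed the edgeR threshold in any comparison. At an unadjusted p under 0.05, 13 of the 40 were found in PS19 against WT (5 higher, 8 lower, beside 16.3% of all genes) and 14 in P301S Tia1+/- against PS19 (7 higher, 7 lower, beside 19.3%). Tia1+/- against WT gave 10 (6 higher, 4 lower, beside 19.1%) and P301S Tia1+/- against Tia1+/- gave 12 (6 higher, 6 lower, beside 15.6%). The average gave 3, beside 8.39% of all genes, and the interaction 19, beside 22.9%. Sp8, a transcription factor of olfactory bulb and other interneurons, was at 93.1, 15.5 and 3.80 CPM in WT, 1.59, 1.05 and 20.2 CPM in Tia1+/-, 1.04, 3.92 and 2.05 CPM in PS19, and 65.9, 52.8 and 60.5 CPM in P301S Tia1+/-. The 4 highest libraries were those highest for Dlx1. Glra3, a glycine receptor subunit, was at 20.1, 17.2 and 11.6 CPM in PS19 and at 5.36 to 9.64 CPM in all other libraries.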

How the data were processed

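RNA from cortex was sequenced by the authors on an Illumina HiSeq 2000 after TruSeq stranded total RNA preparation, aligned to mm10 with Bowtie and TopHat, and counted per gene with featureCounts. The deposited values are raw counts per gene, from which the authors' table has 1 column per library. The annotation, strand setting and treatment of multimapping reads are not given in the sources used here.

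Counts were fitted with edgeR 4.0.16 (TMM scaling, quasi-likelihood test, filterByExpr) on all 12 libraries with 1 mean per group in R 4.3.3, and p-values were adjusted by Benjamini-Hochberg over 15440 genes. A gene counts as called at an adjusted p under 0.05. CPM are normalised by TMM. Fold changes, SE and p are given for members with an unadjusted p under 0.05 in a comparison, or for the 5 smallest p where fewer. DESeq2 1.42.0 and the other settings were alternatives, and 2 settings (both libraries that stand apart left out, and bulb and striatal covariates together) were chosen after the data were seen. A test of 3 against 3 libraries by permutation cannot go below p = 0.1. The fit was tested on simulated data. The members, lists and markers were chosen with earlier results of these data known. Replicate numbers of the titles did not pair the samples: 7 of 18 same-numbered pairs had a correlation of deviations above 0.1. Intervals and tests cover the spread between these samples, which may be technical. Promoters come from RefSeq (GRCm38.p6), gene positions from GENCODE M21.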

Additional observations from a re-analysis of the deposited data

Results flagged for a closer look

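For 4 members every PS19 library lay on 1 side of WT and every P301S Tia1+/- library on the opposite side of Tia1+/-. They were Gabrb1, with an interaction of -0.83 on the log2 scale, Gad1 at 2.11, Slc6a11 at 2.27 and Dlx1 at 3.92. The edgeR adjusted p of these interactions was 0.0694, 0.0977, 0.115 and 0.0684, so none passed. The share of all genes with such a reversal was not counted. Groups did not overlap for 20.8% of all genes in PS19 against WT and 26% in P301S Tia1+/- against Tia1+/-. Without WT replicate 1 the terms of Gad1 and Slc6a11 were 1.38 and 1.36, and Gabrb1 (-0.69) and Dlx1 (2.74) then passed, with adjusted p of 0.048 and 0.0417. Lhx6 passed in that fit too, beside 1.55% of all genes. Gabbr1 had a Tia1 effect of opposite sign without and with tau, with an interaction of -0.28. This did not pass, as the smallest edgeR adjusted p among the GABA-B subunits was 0.271. The Gabbr1 mean in WT was 637 CPM, or 692 CPM without WT replicate 1, against 712 CPM in Tia1+/-. Bulb markers were high in WT replicate 1 and all P301S Tia1+/- libraries, as given above, and their part in these patterns was not tested.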

How the results depend on the processing

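With the edgeR settings of DESeq2 size factors, no filter on low counts, 10 counts in every library, or the replicate block, 0 members passed in all 6 comparisons, as in the reported fit. The replicate block gave 0 calls, and same-numbered samples did not deviate together, so the block is only a shared number.

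The counts of members past the threshold moved as follows, in the order PS19 against WT, P301S Tia1+/- against PS19, Tia1+/- against WT, P301S Tia1+/- against Tia1+/-, average, interaction. DESeq2 gave 2, 4, 0, 3, 1 and 6, beside 2.88%, 5.45%, 6.33%, 2.62%, 0.518% and 8.06% of all genes. The olfactory bulb covariate gave 3, 4, 6, 5, 0 and 6, beside 2.79%, 2.75%, 6.28%, 3.98%, 0.0453% and 4.44% of all genes. The striatal covariate gave 0, 8, 0, 0, 0 and 11, beside 0%, 3.92%, 0.22%, 0.253%, 0.00648% and 8.23%. Both covariates together gave 2, 1, 0, 0, 1 and 1, beside 0.512%, 1.19%, 0.304%, 0.389%, 1.08% and 0.589% of all genes. Leaving both outlying libraries out gave 0, 19, 1, 20, 14 and 16, beside 0.476%, 22.9%, 1.72%, 23.4%, 14% and 13.5% of all genes. Fitting only the libraries compared gave 17 in P301S Tia1+/- against PS19 (20.1% of all genes) and 2 in P301S Tia1+/- against Tia1+/- (2.22%). Leaving out each library in turn gave 0 to 1 for the average and 0 to 6 for the interaction, with 3 without WT replicate 1, 5 without Tia1+/- replicate 3 and 6 without WT replicate 3.

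Directions turned with the bulb covariate and with both covariates together, given in that order. A single value marked under both comes only from the fit with both covariates together, and is not a value of the bulb covariate fit. The cause was not tested. Turned means only a change of sign, and some values, such as Gabrb1 at 0.00013 and -0.025 and Gabra4 at 0.020, show almost no difference. SE are not given for these values. In PS19 against WT they were Dlx1 0.20 and 0.63, Dlx2 0.52 and 1.27, Gad1 0.32 and 0.38, Slc6a11 0.49 and 0.74, with Gphn 0.10 under both. In P301S Tia1+/- against PS19 they were Dlx1 -0.058 and -0.54, Dlx2 -0.49 and -1.28, Gad1 -0.24 and -0.32, Slc6a11 -0.50 and -0.79, Gabra5 -0.094 and -0.89, Gabra4 0.020 and 0.30, Dlx5 -1.42 and -1.43, Slc12a2 -0.13 and -0.25, with Gphn -0.15 and Lhx6 2.56 under both. In Tia1+/- against WT they were Dlx1 0.049 and 0.52, Dlx2 0.24 and 1.07, with Gabrb1 -0.025 and Gabrd -0.56 under both. In P301S Tia1+/- against Tia1+/- they were Dlx2 -0.21 and -1.09, Gad1 -0.40 and -0.47, with Gabra5 -0.32, Lhx6 2.09, Dlx1 -0.43 and Gabra4 0.29 under both. In the interaction they were Dlx1 -0.11 and -1.06, Dlx2 -0.73 and -2.36, Gad1 -0.72 and -0.86, Gabra5 -0.096 and -1.60, Slc6a11 -1.07 and -1.61, Gabra4 0.034 and 0.56, Gphn -0.093 and -0.38, Dlx5 -2.62 and -2.63, with Gabrb1 0.00013 and Lhx6 4.31 under both. Slc32a1 in the average was 0.064 without Tia1+/- replicate 3 and 0.24 with both outlying libraries left out, and its leave-one-out range was -0.45 to 0.064.

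Among fitted differences under the alternatives, 616 kept direction and side of the threshold, 86 kept direction and passed, and 61 turned. The 61 include values of almost no size that only changed sign. Gabra6 and Gabre were too low for any call at this depth.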
